A study of Mus musculus with 4 samples.

Results

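The genes of the pre-B receptor and of V(D)J recombination were followed in stromal and T cells of leukemic tumors grown in Wt or *Sipa1*-/- hosts. The 9 genes were *Vpreb1*, *Igll1*, *Vpreb3*, *Cd79a*, *Cd79b*, *Blnk*, *Rag1*, *Rag2* and *Dntt*, out of 22911 gene symbols on the arrays. They were chosen by name for their roles, with earlier results of these data known. Every spot whose accession maps to them was used, which gave 10 probes with 1 spot each. *Rag2* had 2 probes and each other gene 1.

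RNA came from mesenchymal stroma cells (MSCs), sorted as GFP- CD45- Ter119- CD31-, and from CD8+ T cells, sorted as GFP- TCRβ+ CD8+, and was hybridized in 1 color to 4 Agilent mouse arrays. The hosts were Wt or *Sipa1*-/- mice of strain C57BL/6Ncr, aged 8 weeks, with 5 mice per genotype, and whether their cells were pooled for an array is not given in the sources used here. Each mouse received 15000 *Bcr-Abl*+ hematopoietic progenitors (HPCs) under the skin in Matrigel, and tumors were taken on day 12. The progenitors were Wt bone marrow cells carrying retroviral *p210Bcr-Abl* with GFP, so the tumors of both hosts were grown from cells with intact *Sipa1*. With 1 array in each group there were no replicates and no test was made, and the number of arrays limits the precision.

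Levels are log2 processed signal minus the 75th percentile of the array, so 0 is that percentile, and a log2 ratio is the *Sipa1*-/- level minus the Wt level. The 75th percentile was 19.7 times the median background for Wt MSCs, 19.1 times for *Sipa1*-/- MSCs, 18.0 times for Wt CD8+ T cells and 16.4 times for *Sipa1*-/- CD8+ T cells. Over probes printed on 10 spots, the median SD of the log2 ratio was 0.034 in MSCs and 0.029 in CD8+ T cells, which covers spot noise and not the spread between mice. The deleted gene was lower on the arrays of *Sipa1*-/- cells. For 1 of its probes the level was 5.03 in Wt and 3.78 in *Sipa1*-/- MSCs, and 5.40 in Wt and 3.73 in *Sipa1*-/- CD8+ T cells. For the other *Sipa1* probe it was 3.05, 1.46, 3.43 and 1.39 in the same order. Each probe had signal well above background throughout, and where they lie relative to the deleted part is not known here, so they are a weak check of the labels.

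A pre-B cell displays its newly made heavy chain with a surrogate light chain, made of VpreB and λ5 proteins, and the Igα and Igβ chains signal from this receptor through adaptors such as Blnk. The Rag proteins cut the V, D and J segments, and terminal transferase adds bases to the ends before they are joined. These genes are used by B-cell precursors, and the recombination genes also by thymocytes, whereas mature T cells and mesenchymal cells are not known for them. The study reports that *Bcr-Abl*+ HPCs placed under the skin differentiated with a bias toward the B lineage. Which cells within each sort carried the signals below was not tested, so a level in MSCs means the level on the array of that sort.

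The 9 genes were highest on the Wt MSC array, where the 10 probes were well above background, although the sort left out CD45+ and GFP+ cells. The sum of their signals, in units of the 75th percentile and with the probes of a gene averaged on the linear scale here and wherever a sum or a brightest gene is given, was 626 in Wt MSCs, 35.5 in *Sipa1*-/- MSCs, 26.5 in Wt CD8+ T cells and 18.4 in *Sipa1*-/- CD8+ T cells. Of the 9 genes, 8 were well above background in *Sipa1*-/- MSCs and 7 on each CD8+ T array. In MSCs 8 of the 9 genes passed the flags on both arrays, *Rag1* being the exception, and 8 of these 8 were lower in *Sipa1*-/- cells by 2-fold or more, beside 11.3% of the 15298 genes measured. Their median log2 ratio was -4.27, and that of all measured genes was 0.043. In CD8+ T cells 7 of the 9 genes passed, and 3 of the 7 were lower by 2-fold or more, beside 1.40% of 14339 genes. Their median log2 ratio there was -0.93, beside -0.022 for all measured genes. That median is the value of *Dntt* alone, which lay between the lower *Vpreb1*, *Igll1* and *Vpreb3* and the nearly level *Cd79a*, *Cd79b* and *Blnk*, so it does not give a shift of the group. Since the genes were chosen with earlier results of these data known, these counts and medians are a description. A brightest gene is named by the signal of its probes, and signals of different probes do not compare the expression of genes. In bulk RNA, fewer cells that carry these transcripts and less RNA per cell cannot be told apart.

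**Figure D1:**
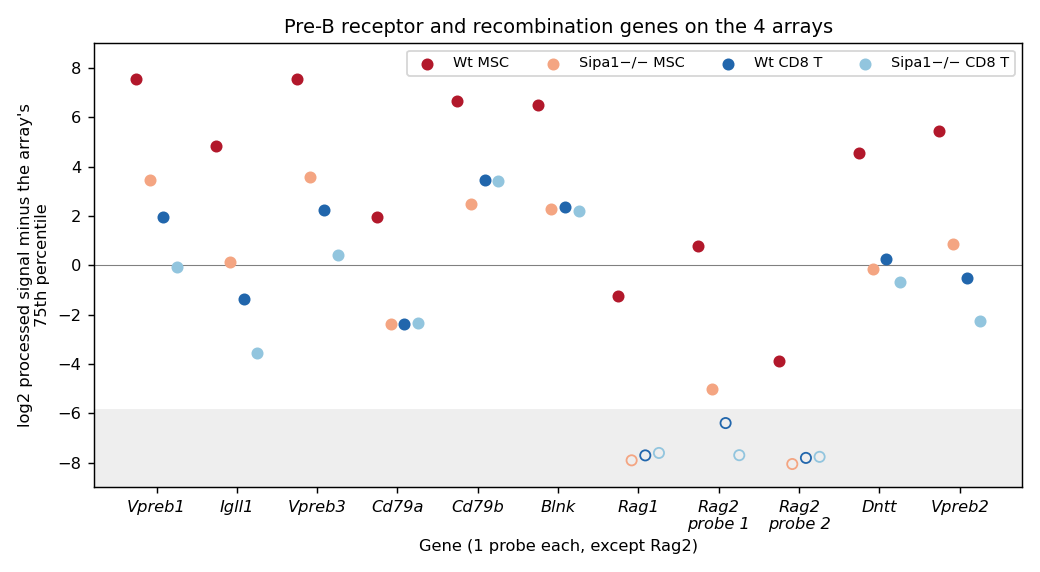
Level of each probe on the 4 arrays, as log2 processed signal minus the 75th percentile of the array, for the 9 genes and *Vpreb2*. Filled points are well above background and open points are not, and the gray band marks levels below the lowest one called well above background on any array. The Wt MSC point is the highest of every probe, for example 7.57 for *Vpreb1*, and *Vpreb1*, *Igll1*, *Vpreb3* and *Vpreb2* also step down between the CD8+ T arrays.

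The surrogate light chain genes were lower on the *Sipa1*-/- array in both cell types. *Vpreb1*, which encodes the V-like chain of the surrogate light chain, had a level of 7.57 in Wt MSCs, 3.45 in *Sipa1*-/- MSCs, 1.96 in Wt CD8+ T cells and -0.080 in *Sipa1*-/- CD8+ T cells. It was thus 17.4-fold lower on the *Sipa1*-/- array in MSCs and 4.12-fold lower in CD8+ T cells. *Igll1*, which encodes λ5, the constant-like chain, had levels of 4.82, 0.13, -1.35 and -3.56 in the same order, a 25.8-fold difference in MSCs and 4.61-fold in CD8+ T cells, where the log2 ratio of -2.21 became -1.37 under normexp. *Vpreb3*, a relative of *Vpreb1* whose protein stays inside the cell, had levels of 7.55, 3.57, 2.25 and 0.43, with 15.9-fold and 3.53-fold lower signals on the *Sipa1*-/- arrays. For each of these genes the order from high to low was Wt MSC, *Sipa1*-/- MSC, Wt CD8+ T and *Sipa1*-/- CD8+ T. Even the *Sipa1*-/- CD8+ T array carried all 3 transcripts well above background, with *Igll1* at a spot signal of 2.61 times its local background.

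*Vpreb2*, a near copy of *Vpreb1* outside the chosen genes, followed the same order. Its levels were 5.43 in Wt MSCs, 0.85 in *Sipa1*-/- MSCs, -0.54 in Wt CD8+ T cells and -2.27 in *Sipa1*-/- CD8+ T cells. The log2 ratios were -4.58 in MSCs and -1.73 in CD8+ T cells. Whether the probes of *Vpreb1* and *Vpreb2* each bind the other transcript is not known here, so the values of the copies are uncertain as separate measurements.

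The signaling chains and the adaptor had ratios like the surrogate light chain in MSCs, but were close to level between the CD8+ T arrays. *Cd79a*, which encodes Igα, had a level of 1.96 in Wt MSCs, -2.37 in *Sipa1*-/- MSCs, -2.38 in Wt CD8+ T cells and -2.32 in *Sipa1*-/- CD8+ T cells. Only the Wt MSC array was high for *Cd79a*, 20.0-fold above the *Sipa1*-/- MSC array, and the log2 ratio of -4.33 became -3.66 under normexp. The log2 ratio of *Cd79a* in CD8+ T cells was 0.055, a value that turned negative under median shift and quantile normalization. *Cd79b*, which encodes Igβ, had levels of 6.65, 2.49, 3.45 and 3.41 in the same order, so the *Sipa1*-/- MSC array was the lowest of the 4. It was 17.9-fold lower in *Sipa1*-/- than in Wt MSCs, and its CD8+ T ratio of -0.043 turned positive under quantile normalization, the series matrix values and normexp. *Blnk*, which encodes the adaptor that links the kinase Syk to phospholipase Cγ2, had levels of 6.50, 2.28, 2.37 and 2.19. The *Blnk* level was 18.6-fold lower in *Sipa1*-/- MSCs than in Wt MSCs, and the other 3 arrays lay close together.

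The recombinase genes were dim outside the Wt MSC array. *Rag1*, which encodes the cutting subunit, had a level of -1.25 in Wt MSCs, at 9.96 times the local background, and was not well above background on the other 3 arrays. With the dim arrays set to the lowest signal called well above background there, *Rag1* was at least 23.3-fold lower in *Sipa1*-/- MSCs and at least 19.9-fold lower in Wt CD8+ T cells than in Wt MSCs. *Rag2*, which encodes the partner of Rag1, had 1 probe at 0.79 in Wt MSCs and -5.02 in *Sipa1*-/- MSCs, and this probe was not well above background on either CD8+ T array. Its log2 ratio of -5.80 was the lowest of the 15298 genes measured in MSCs, but the *Sipa1*-/- spot stood at only 1.81 times its local background. The *Rag2* ratio became -3.46 under normexp. The other *Rag2* probe read -3.88 in Wt MSCs and was not well above background elsewhere, which gives at least 3.76-fold lower in *Sipa1*-/- MSCs. Between the CD8+ T arrays no fold can be given for *Rag1* or *Rag2*.

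*Dntt*, which encodes terminal transferase, had levels of 4.54 in Wt MSCs, -0.17 in *Sipa1*-/- MSCs, 0.26 in Wt CD8+ T cells and -0.68 in *Sipa1*-/- CD8+ T cells. It was 26.2-fold lower on the *Sipa1*-/- array in MSCs. Between the CD8+ T arrays it was 1.91-fold lower, just under the 2-fold threshold, and the log2 ratio of -0.93 passed the threshold under median shift, at -1.08. The value for *Dntt* therefore lay between the surrogate light chain genes and the signaling chains in these cells.

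For the 7 genes with ratios in both cell types, these were close together in MSCs and spread in CD8+ T cells. In MSCs they ran from -4.71 for *Dntt* to -3.99 for *Vpreb3*, with an SD over genes of 0.28. For CD8+ T cells the range was -2.21 for *Igll1* to 0.055 for *Cd79a*, with an SD of 0.99, but the sign for *Cd79a* changed under median shift and quantile normalization, and under normexp *Vpreb1* was lowest at -1.77, with *Igll1* at -1.37. The ratios were thus unequal between the CD8+ T arrays, and whether their spread differs from that in MSCs was not tested. Counted from the lowest ratio, the 8 genes measured in MSCs lay within the first 61 of 15298, with *Dntt* at 8 and *Igll1* at 10. Among CD8+ T ratios *Igll1* was at 25, *Vpreb1* at 42, *Vpreb3* at 59 and *Dntt* at 224 of 14339. The genes were chosen with such values known, so these positions are a description.

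Genes that act downstream of the receptor were mostly lower on the *Sipa1*-/- array in MSCs. Of 20 measured signaling genes, 15 were at least 2-fold lower and 0 higher, with a median log2 ratio of -2.70. For this and each list below, the shares of all genes at 2-fold were 11.3% lower and 19.3% higher in MSCs, and 1.40% lower and 2.66% higher in CD8+ T cells. The lists were also chosen with earlier results of these data known, so their counts are a description. *Blk*, a Src-family kinase of B cells, had the lowest ratio of the list at -4.58, and *Cblb*, a ubiquitin ligase of many leukocytes, the highest at 0.81. The kinases *Syk* and *Btk* both had -2.99, *Lyn* had -1.77, the phospholipase gene *Plcg2* had -2.79 and the inhibitory receptor gene *Cd22* had -2.10. Between the CD8+ T arrays 0 of the 20 passed 2-fold and the median was 0.013. *Syk* read -0.28 and -0.24 there, *Btk* -1.54 and -1.69, and *Blk* -4.39 and -4.31 on the Wt and *Sipa1*-/- arrays.

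The list of genes that join the cut ends, which also holds the DNA-bending genes *Hmgb1* and *Hmgb2*, showed smaller ratios. In MSCs 5 of 13 were at least 2-fold lower and 0 higher, with a median of -0.75. *Xrcc6*, which encodes the Ku70 end-binding protein, had -2.54, while its partner gene *Xrcc5* had -0.48. *Lig4*, the ligase gene, had -2.18, *Dclre1c*, which encodes the hairpin-opening nuclease Artemis, had -1.35, and *Prkdc*, the kinase gene, had -0.75. *Hmgb2*, which encodes a DNA-bending cofactor of the Rag proteins, had -2.23, its relative *Hmgb1* had -2.12, and *Paxx* had the highest value at 0.34. For CD8+ T cells 0 of 13 passed 2-fold, with a median of -0.18.

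The transcription factor list was lower in MSCs for 13 of 14 genes at 2-fold, with a median of -2.58. *Pax5*, which maintains B-cell identity, went from -1.36 to -3.91, a ratio of -2.55. *Ebf1*, which acts early in B-cell commitment, had a ratio of -1.03, and its level of 1.91 on the *Sipa1*-/- MSC array stood above -2.26 and -2.42 on the Wt and *Sipa1*-/- CD8+ T arrays. *Foxo1* had -1.63, *Lef1* the lowest value at -4.61 and *Irf8* the highest at -0.77. Of the 14, 0 passed 2-fold in CD8+ T cells and the median there was 0.02.

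Of 12 genes of early B cells or progenitors, most of them for surface proteins, 9 were at least 2-fold lower in MSCs and 0 higher, with a median of -2.43. *Il7r*, the interleukin-7 receptor gene, went from 3.58 to -0.58, a ratio of -4.16. *Kit* was nearly level at -0.26, the highest ratio of the list, and *Cecr2*, which encodes a nuclear chromatin protein, had the lowest at -4.75. Of the 10 measured in CD8+ T cells 0 passed 2-fold, with a median of -0.093. *Il7r* read 5.55 and 5.40 on the Wt and *Sipa1*-/- arrays there, and mature T cells use this receptor as well. The summed signal of the list was 110 in Wt MSCs, 25.8 in *Sipa1*-/- MSCs, 74.4 in Wt CD8+ T cells and 68.9 in *Sipa1*-/- CD8+ T cells. *Cd24a* was its brightest gene in MSCs and *Il7r* in CD8+ T cells, where *Cecr2* was at background in both genotypes and *Enpep* in *Sipa1*-/- cells.

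**Figure D2:**
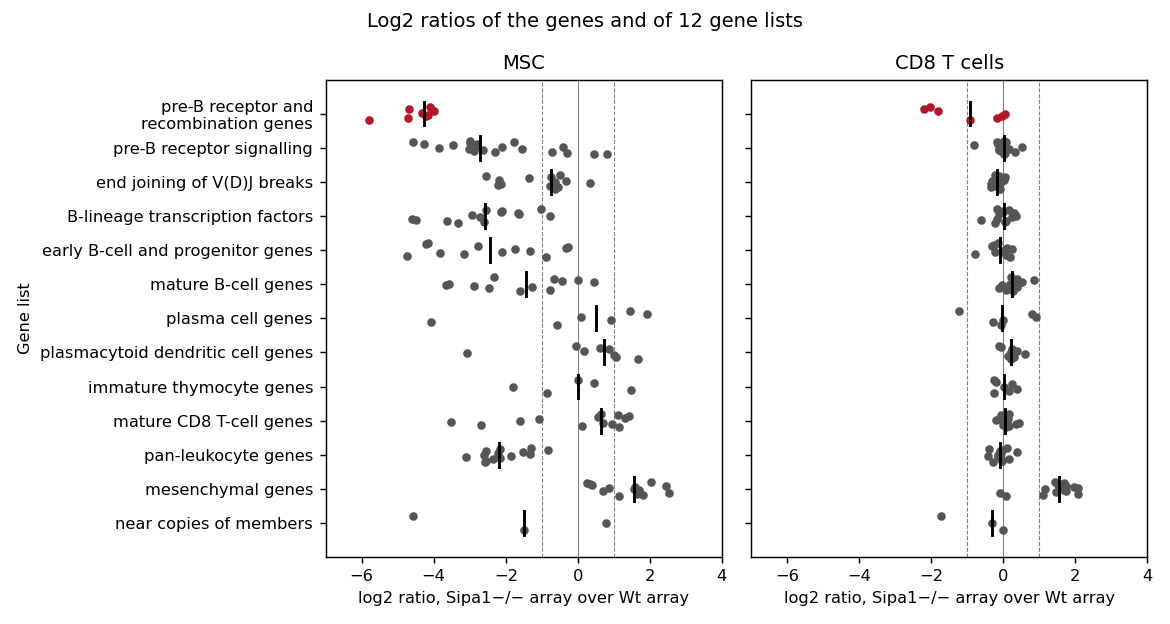
Log2 ratio of the *Sipa1*-/- over the Wt array for each measured gene of the pre-B receptor and recombination group (red) and of 12 gene lists (gray), in MSCs on the left and CD8+ T cells on the right. Black bars are medians and dashed lines mark 2-fold. In MSCs the group has a median of -4.27 and the mesenchymal genes 1.57, and in CD8+ T cells the mesenchymal genes have 1.55.

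Genes shared by leukocytes, B-lineage cells among them, were also lower on the *Sipa1*-/- MSC array, and their part in the result was not tested. Of 14 pan-leukocyte genes, 13 were lower by 2-fold or more in *Sipa1*-/- MSCs, with a median of -2.19. Their summed signal was 226 in Wt MSCs, 59.8 in *Sipa1*-/- MSCs, 762 in Wt CD8+ T cells and 729 in *Sipa1*-/- CD8+ T cells, with all 14 well above background on each array. *Coro1a* was the brightest of them in Wt MSCs and *Cd52* on the other arrays. *Ptprc*, which encodes the CD45 protein used to deplete leukocytes in the sort, read 0.76 in Wt and -0.55 in *Sipa1*-/- MSCs, and 4.38 and 4.48 in CD8+ T cells. *Cd48* had the lowest ratio of this list in MSCs, -3.10, and *Cd52* the highest, -0.82. Between the CD8+ T arrays 0 of the 14 passed 2-fold, with a median of -0.077. Outside the lists, myeloid genes went both ways between the CD8+ T arrays. *Acod1* had -2.30, *C5ar1* -1.77 and *Camp* -1.12, while *Adgre1* had 0.11, *C1qa* 0.23 and *C3ar1* 0.75. They were named after their values were seen, and their part in the lower surrogate light chain signals was not tested.

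The summed signal of the mature B-cell list had a different order over the arrays, but it rests largely on *Cd74*. *Ighm* and *Ighd*, 2 of the 14 genes of the list, had no spot with their symbol. In MSCs 7 of 12 measured genes were at least 2-fold lower and 0 higher, with a median of -1.44, from -3.67 for *Cxcr5* to 0.45 for *Cd74*. The summed signal was 25.4 in Wt MSCs, 18.4 in *Sipa1*-/- MSCs, 98.5 in Wt CD8+ T cells and 139 in *Sipa1*-/- CD8+ T cells, with *Cd74* brightest and 12 of 12 well above background on each. *Cd74* itself had levels of 3.57, 4.02, 6.44 and 6.97 in the same order, so the sum does not give the order of the other genes. *Cxcr5*, for example, read 2.22, -1.45, 1.73 and 1.69 and was highest in Wt MSCs. *Ms4a1*, which encodes CD20, read 1.66 and -0.67 in Wt and *Sipa1*-/- MSCs, and 1.56 and 1.76 in CD8+ T cells. *Cr2* and *Fcer2a*, genes of mature B-cell receptors, had ratios of -0.65 and 0.0088 in MSCs and 0.37 and 0.86 in CD8+ T cells. For CD8+ T cells 0 of 12 passed 2-fold, and the median was 0.23, where the surrogate light chain genes were lower.

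The plasma cell, plasmacytoid dendritic cell and thymocyte lists showed no common direction in MSCs. Beside 11.3% lower and 19.3% higher of all genes, 1 of 6 measured plasma cell genes was at least 2-fold lower and 2 higher, with a median of 0.50, from -4.08 for *Mzb1* to 1.44 for *Jchain* and 1.92 for *Sdc1*. Their summed signal was 40.1 in Wt MSCs, 19.5 in *Sipa1*-/- MSCs, 9.51 in Wt CD8+ T cells and 9.83 in *Sipa1*-/- CD8+ T cells, with *Mzb1* brightest in Wt MSCs, *Xbp1* on the others, and *Tnfrsf17* at background throughout. Among the 6 in CD8+ T cells 1 was lower, *Jchain* with -1.23, and the median was -0.029.

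Of 8 measured plasmacytoid dendritic cell genes, 1 was lower and 3 higher in MSCs, beside 11.3% and 19.3% of all genes, with a median of 0.73. *Ly6d* was lowest at -3.07, *Pacsin1* had 1.01, *Cox6a2* 1.06 and *Runx2* 1.67, and *Siglech* had -0.062 from 1 of its probes, the other of which was well above background in Wt but not in *Sipa1*-/- MSCs. Their summed signal was 64.8, 69.5, 84.6 and 88.4 in Wt MSCs, *Sipa1*-/- MSCs, Wt CD8+ T and *Sipa1*-/- CD8+ T cells, with *Siglech* brightest on each by the linear average of its probes, though not by their mean log2 level, and *Klk1* not well above background in Wt MSCs. Of 9 in CD8+ T cells 0 passed 2-fold, with a median of 0.23.

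Of 9 immature thymocyte genes, 5 were measured in MSCs, 1 lower and 1 higher at 2-fold, beside 11.3% and 19.3% of all genes, with a median of 0.0038, from -1.80 for *Cd1d1* to 1.47 for *Bcl11b*. *Ptcra*, which encodes the pre-T receptor α chain of immature thymocytes, had no signal well above background in the 4 groups. The summed signal of the list was 6.90, 2.88, 30.7 and 29.5 in the same order of arrays, with *Cd1d1* brightest in MSCs and *Satb1* in CD8+ T cells. *Themis* was not well above background on either MSC array, *Tox* in Wt MSCs, and *Arpp21* on the *Sipa1*-/- array of each cell type. Of 7 in CD8+ T cells 0 passed 2-fold, with a median of 0.016.

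The sorted types carried their own markers. Of 16 mesenchymal genes all were well above background on both MSC arrays, with a summed signal of 1174 in Wt and 2142 in *Sipa1*-/- MSCs, and *Col1a2* brightest at 8.56 and 8.91. In MSCs 9 of 14 measured were at least 2-fold higher, beside 19.3% of all genes, with a median of 1.57, from 0.26 for *Col1a1* to 2.54 for *Postn*, and *Pdgfrb* had 2.02. For CD8+ T cells 13 of 15 were at least 2-fold higher, beside 2.66% of all genes, with a median of 1.55, and the sum was 262 in Wt and 363 in *Sipa1*-/- cells, with *Thy1*, also a T-cell gene, brightest and *Twist1* not well above background in Wt. The mature CD8 T-cell genes summed to 897 and 941 in Wt and *Sipa1*-/- CD8+ T cells and to 66.6 and 101 in Wt and *Sipa1*-/- MSCs, with *Thy1* brightest on each array and *Cd8a* not well above background in Wt MSCs. The higher sum in *Sipa1*-/- MSCs rests on *Thy1*, also on the mesenchymal list, with levels of 5.41 in Wt and 6.55 in *Sipa1*-/- MSCs. *Cd2* read 4.08 and 0.56 there, so the sum does not give the direction of the other genes. *Cd8b1* read 7.29 and 7.41 and *Cd3e* 4.15 and 4.31 in Wt and *Sipa1*-/- CD8+ T cells. In MSCs 4 of 13 T-cell genes were lower at 2-fold, *Cd2* with -3.52, *Lat* -2.69, *Zap70* -1.59 and *Lck* -1.07. Another 4 were higher, *Cd3g* with 1.43, *Cd8b1* 1.30, *Thy1* 1.14 and *Cd3d* 1.10. The MSC median was 0.66. Between the CD8+ T arrays 0 of the T-cell genes passed 2-fold, with a median of 0.049. Only 3 of 7 near copies had a symbol on the arrays, *Vpreb2*, *Clnk* and *Lcp2*, the last 2 being relatives of *Blnk*. In MSCs *Clnk* had 0.79 and *Lcp2* -1.50, and the median of the 3 was -1.50, with 2 lower at 2-fold. For CD8+ T cells 1 of the 3, *Vpreb2*, was lower, and the median was -0.32. The copies summed to 43.9 and 2.12 in Wt and *Sipa1*-/- MSCs and to 6.36 and 5.86 in Wt and *Sipa1*-/- CD8+ T cells, with *Vpreb2* brightest in MSCs and *Lcp2* in CD8+ T cells.

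Over the 4 arrays, the genes outside the group whose centered levels were nearest its mean profile were taken from 17058 genes by Euclidean distance. *Grb7*, which encodes an SH2 adaptor, was nearest at 0.18, with levels of 3.50 in Wt MSCs, -1.34 in *Sipa1*-/- MSCs, -1.70 in Wt CD8+ T cells and -2.37 in *Sipa1*-/- CD8+ T cells. It was followed by *Pinlyp* at 0.29, *Tnnt2* at 0.34, *Gpat3* at 0.55, *Trpc4* at 0.60, *Mzb1* at 0.69, *Pcdh11x* at 0.74, *Adgrf1* at 0.76, *Clec4f* at 0.81 and *Tac4* at 0.82. Distances of the 9 genes themselves ran from 0.40 for *Rag2* to 2.07 for *Cd79b*. Of the 10 nearest genes, 7 lacked signal well above background on at least 1 array, so their distances rest in part on background, and only *Grb7*, *Gpat3* and *Mzb1* had such signal on all 4. The mean profile itself includes the background values of *Rag1* and *Rag2*, and likeness over 4 arrays is a description only.

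In the RefSeq gene order of assembly GRCm38.p6, 6 of the 9 genes form 3 pairs of adjacent genes. *Igll1* lies next to *Vpreb1* on chromosome 16, *Rag2* next to *Rag1* on chromosome 2, and *Blnk* next to *Dntt* on chromosome 19. The nearest measured genes beside the 9 that are not of the group, taken by position after the data had been examined, were 12 genes. In MSCs 2 of them, *Zfp518a* and *Arhgef1*, were at least 2-fold lower and 0 higher, beside 11.3% and 19.3% of all genes, from -1.07 for *Zfp518a*, beside *Blnk*, to 0.67 for *Iftap*, beside *Rag2*, with a median of -0.40. The 11 measured in CD8+ T cells ran from -0.23 for *Zfp518a* to 0.23 for *Iftap*. In MSCs these ratios lay far above those of the 8 measured genes of the group, while a pair could also differ within itself, *Blnk* having -0.18 and *Dntt* -0.93 in CD8+ T cells.

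Promoter windows of 300 bases from RefSeq, assembly GRCm38.p6, were at hand for 8 of the 9 genes, without *Cd79b*, and were searched on both strands. The E-box CAGGTG, or CACCTG on the other strand, which E2A-type factors can bind, was in 5 of the 8 windows, those of *Vpreb1*, *Igll1*, *Cd79a*, *Blnk* and *Rag1*, and in 20.2% of all 32851 windows. The E-box CAGCTG was in 2, *Igll1* and *Rag1*, beside 16.3% of all. The EBF1-like core CCCNNGGG was in 1, *Igll1*, beside 13.7% of all. The IKZF1-like TGGGAA was in 1, *Rag1*, beside 25.6%, and the ETS-like AGGAAG was in 5, *Vpreb1*, *Vpreb3*, *Cd79a*, *Blnk* and *Rag1*, beside 35.4%. CAGCTG and CCCNNGGG read the same on both strands, and TGGGAA and AGGAAG both contain GGAA but with a different letter before it, so 1 GGAA cannot belong to both. A match describes the letters of the window and not a binding site. The windows of the genes at least 2-fold lower in *Sipa1*-/- cells of both types, with *Vpreb2* beside its copy, and that of *Cd79a*, which was past 2-fold in MSCs and not in CD8+ T cells, are shown 5′ to 3′ along the gene, with the EBF1-like core and the E-boxes in capitals. *Vpreb1* is at chr16:16869206-16869505 on the minus strand, *Vpreb2* at chr16:17980315-17980614 on the plus strand, *Igll1* at chr16:16863936-16864235 on the minus strand, *Vpreb3* at chr10:75948050-75948349 on the plus strand and *Cd79a* at chr7:24897247-24897546 on the plus strand.
*Vpreb1*: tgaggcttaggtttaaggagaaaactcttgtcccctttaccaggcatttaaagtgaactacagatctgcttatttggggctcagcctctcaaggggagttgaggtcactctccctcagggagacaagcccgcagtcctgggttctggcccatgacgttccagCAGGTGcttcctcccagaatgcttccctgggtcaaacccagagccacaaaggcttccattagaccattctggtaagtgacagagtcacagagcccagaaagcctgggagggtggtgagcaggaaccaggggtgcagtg
*Vpreb2*: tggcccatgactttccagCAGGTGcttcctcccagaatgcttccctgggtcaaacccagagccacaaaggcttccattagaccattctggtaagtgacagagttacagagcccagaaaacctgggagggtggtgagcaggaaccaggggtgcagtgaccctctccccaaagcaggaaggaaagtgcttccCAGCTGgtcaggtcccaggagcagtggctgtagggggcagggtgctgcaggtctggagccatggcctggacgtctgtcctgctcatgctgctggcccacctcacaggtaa
*Igll1*: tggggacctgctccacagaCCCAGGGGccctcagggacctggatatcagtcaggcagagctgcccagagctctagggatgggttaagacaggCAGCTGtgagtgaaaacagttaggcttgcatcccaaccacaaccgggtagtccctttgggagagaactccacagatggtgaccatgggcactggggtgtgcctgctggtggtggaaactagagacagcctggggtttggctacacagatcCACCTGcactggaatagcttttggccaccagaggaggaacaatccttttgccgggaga
*Vpreb3*: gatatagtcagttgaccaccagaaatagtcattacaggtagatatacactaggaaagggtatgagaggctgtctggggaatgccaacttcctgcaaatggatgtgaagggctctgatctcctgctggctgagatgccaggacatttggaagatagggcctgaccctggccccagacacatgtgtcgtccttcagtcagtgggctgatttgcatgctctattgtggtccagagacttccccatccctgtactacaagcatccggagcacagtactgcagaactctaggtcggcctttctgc
*Cd79a*: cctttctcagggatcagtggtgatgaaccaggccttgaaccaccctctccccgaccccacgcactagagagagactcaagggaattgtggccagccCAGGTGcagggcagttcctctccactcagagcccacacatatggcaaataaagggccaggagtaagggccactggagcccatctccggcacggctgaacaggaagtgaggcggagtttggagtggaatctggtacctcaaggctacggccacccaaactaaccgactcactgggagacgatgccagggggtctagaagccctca
The windows of *Vpreb1* and *Vpreb2* overlap in sequence over 156 bases, of which 153 are identical, and both hold CAGGTG in that stretch. *Vpreb3*, whose ratios were like those of *Vpreb1* in both cell types, has none of the 3 capitalized motifs in its window. *Cd79a*, whose ratio in CD8+ T cells was 0.055 and turned negative under median shift and quantile normalization, has CAGGTG as *Vpreb1* does.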

How the data were processed

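The deposited scanner values are spot intensities of 4 one-color arrays, which the authors' Agilent software had corrected for background. The file headers name Feature Extraction 12.0.3.1 and the submitters' processing notes 9.1. All arrays lay on 1 slide with 1 scan time. Of 59305 spots that are not controls, 57.6% matched a RefSeq symbol by accession. Levels were log2 intensities minus the 75th percentile of each array. As in the study's methods, flags asked for unsaturated, uniform spots with positive and significant signal well above background, and asking this of both arrays of a pair was a choice made here. Spots were averaged per probe and probes per gene, and 2-fold was the threshold for counts. The members and lists were chosen with earlier results of these data known. Named genes were the members, *Sipa1*, *Vpreb2*, set genes of 12 lists with their extremes in MSCs, and the 10 nearest profiles, without clone and predicted names. Other genes named for a count of 5 or fewer, as brightest or as not above background, and neighbors and myeloid genes, were chosen after their values were seen. The calculation was tested on simulated data. Calculations ran in Python 3.11.15 with pandas 2.3.3, numpy 2.4.6 and matplotlib 3.10.9, and in R 4.3.3 with limma 3.58.1. The alternatives, among them normexp with an offset of 50, follow at the end.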

Additional observations from a re-analysis of the deposited data

Results flagged for a closer look

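The results here had opposite signs in MSCs and CD8+ T cells, given as log2 ratios of the *Sipa1*-/- over the Wt array. With 1 array per group, none of these differences was tested, and many of the CD8+ T values lie near 0. *Cd79a*, whose CD8+ T value turned negative under median shift and quantile normalization, had -4.33 in MSCs and 0.055 in CD8+ T cells.

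Among signaling genes, *Syk* had -2.99 in MSCs and 0.034 in CD8+ T cells, *Blk* -4.58 and 0.073, and *Cd22* -2.10 and 0.52. Among end-joining genes, *Prkdc* had -0.75 and 0.041, *Lig4* -2.18 and 0.021, *Dclre1c* -1.35 and 0.020, and *Paxx* 0.34 and -0.18. *Pax5* had -2.55 and 0.16, *Irf8* -0.77 and 0.36, and *Kit* -0.26 and 0.11. *Ms4a1* had -2.33 and 0.21, *Cr2* -0.65 and 0.37, *Ptprc* -1.30 and 0.10, *Ly6d* -3.07 and 0.23, *Cd1d1* -1.80 and 0.016, *Clnk* 0.79 and -0.32, *Lat* -2.69 and 0.0016, and *Cd3d* 1.10 and -0.072. *Jchain*, which encodes the joining chain of secreted antibodies, had 1.44 in MSCs and -1.23 in CD8+ T cells, past 2-fold in each.

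Among list medians, signaling had -2.70 in MSCs and 0.013 in CD8+ T cells, transcription factors -2.58 and 0.02, mature B-cell genes -1.44 and 0.23, and plasma cell genes 0.50 and -0.029.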

How the results depend on the processing

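No paired analysis was possible, since there is a single array in each condition. Since 0 spots were saturated, keeping such spots gave the same values. Under the 10 alternatives the count of 2-fold lower genes ran from 7 to 9 in MSCs, against 8, and from 2 to 4 in CD8+ T cells, against 3. The fewest came among genes above the median signal, where fewer genes enter. The 9 in MSCs counts *Rag1*, which was well above background only in Wt MSCs, so it had to come out lower and adds no support. *Vpreb1*, *Igll1*, *Vpreb3* and *Vpreb2* kept their direction in both cell types wherever measured. Not every other move is given, and the cause of those given was not tested.

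The MSC median of -4.27 was -4.33 with flags on 1 array or no flags, where *Rag1* enters, -4.41 with median shift or quantile normalization, -4.07 with the series matrix values, -4.36 with normexp and -4.22 where dim genes below the median signal were dropped. The CD8+ T median of -0.93 was -0.63 without flags, where *Rag1* and *Rag2* enter with background signals and the median is the *Rag2* value itself, so that it says nothing of the group, -1.08 with median shift, -0.89 with the percentile over detected spots, -0.80 with the series matrix values and -0.78 with normexp.

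Median shift moved the all-gene median by -0.14 (MSCs) and -0.15 (CD8+ T cells). The series matrix values moved it by 0.21 and 0.13. Of genes past 2-fold, the lower ones made up 36.9% (MSCs) and 34.5% (CD8+ T cells), and 25.9% and 23.7% with the series matrix values. With median shift the lower genes made up 45.9% (MSCs) and 47.5% (CD8+ T cells). For CD8+ T cells the share was 49.5% with normexp and 51.1% with dim genes dropped. The 1733 lower genes of MSCs became 901 with dim genes dropped. The 201 of CD8+ T cells became 371 with flags on 1 array, 633 without flags, 70 with dim genes dropped and 96 with normexp. The 2958 higher genes of MSCs became 1307 with dim genes dropped and 1804 with normexp. The 381 of CD8+ T cells became 685 with flags on 1 array, 1059 without flags, 67 with dim genes dropped and 98 with normexp. With dim genes dropped there was no value for *Rag2* in MSCs or for *Igll1*, *Cd79a* and *Vpreb2* in CD8+ T cells. Signal near background limits *Rag1* and *Rag2*, and the MSC ratio of *Rag2* ran from -6.03 to -3.46.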
